A study of Mus musculus with 15 samples.

Results

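Strong HSF1 peaks in mouse brown adipose tissue are described here at 10 genes that encode no chaperone: Uspl1, Kctd18, Swt1, Mrfap1, Castor1, Chrac1, Ccdc117, Trafd1, Dynll1 and Xpnpep3. They are 10 of 21883 protein-coding genes of GRCm38 with a distinct symbol. A peak was given to a gene when it overlapped the gene span extended by 5000 bp on each side by at least 1 bp. The genes were chosen by the strength of these same peaks, so ranks, folds and counts of calls are descriptions and carry no test.

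The ChIP libraries form 5 groups of 2, all from brown adipose tissue precipitated with an antibody to HSF1. Wild type (WT) tissue was taken at room temperature (RT), after 40 min of cold stress and after 4 h of cold stress. TXNIP KO tissue was taken after 40 min of cold stress, and a second WT pair, numbered 1.1 and 2.1 in the labels, also comes from 40 min. The labels give neither how the TXNIP KO was made nor the strain, age and sex of the mice. The labels do not say that the 2 libraries of a group come from separate animals, nor which WT pair was prepared beside the TXNIP KO.

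HSF1 is held inactive by chaperones in unstressed cells. Under proteotoxic stress it forms trimers that bind heat shock elements, runs of alternating GAA and TTC units spaced by a short gap, and it activates genes for chaperones. Chaperone promoters are its textbook targets, but it also binds promoters of genes with other functions. Brown adipose tissue burns fuel for heat in the cold, and HSF1 has been linked to its thermogenic program.

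The lists differ in length, with 919 and 1269 peaks at RT, 2287 and 1670 in the first WT pair at 40 min, 123 and 351 at 4 h, 10399 and 10633 in TXNIP KO and 12644 and 14583 in the second WT pair. Fold enrichment, the height of the summit over the local background, is the authors' own value per peak. Without read counts in the lists, the depth of each library is unknown. Ranks follow the −log10 p of the authors' peak caller within a list (rank 1 is the strongest peak). Ranks from lists of unequal length show no change, so comparisons between groups below use ranks by fold among the same regions. An exact permutation test of 1 value between groups of 2 gives a two-sided p of 0.33 at the least.

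All 10 genes had a peak in both libraries at RT, in the first WT pair at 40 min, in TXNIP KO and in the second WT pair at 40 min, and 4 of 10 at 4 h. By the same rule, the share of all genes with a peak in both libraries was 2.95% at RT, 4.97% in the first WT pair, 0.466% at 4 h, 21.0% in TXNIP KO and 26.6% in the second WT pair. The genes were selected for such peaks, so nothing is read from this gap. They held 106 peaks over the 10 lists, of which 88 were the leading peak of a gene in a library (the one with the largest −log10 p). In a list of 79 chaperone and co-chaperone genes used for comparison, 40 had a peak in both libraries at RT, 43 in the first WT pair, 22 at 4 h, 58 in TXNIP KO and 60 in the second WT pair.

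The label of promoter targets was checked by distance. For 9 of the 10 genes the leading summit lay within 1000 bp of an end of the gene in every library that called the peak. For Uspl1, Chrac1 and Ccdc117 no annotated start was used, so which end is the promoter was not checked, and the summits of Chrac1 and Mrfap1 lay at least 517 and 657 bp inside the gene. Trafd1 had its summit 2627 to 2652 bp outside the gene. Strength also varied: Uspl1 and Xpnpep3 stood among the first 10 peaks of every list, while Chrac1, Dynll1 and Mrfap1 ranked between 175 and 513 at RT. For comparison, the chaperone genes Dnaja1, Hsp90ab1 and Hspa8 ranked 3, 4 and 8 in RT replicate 1 and 4, 3 and 9 in RT replicate 2.

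Promoter sequences show what lies under the summits. RefSeq promoter windows (250 bases before to 50 after an annotated start, build GRCm38.p6) were at hand for 7 of the 10 genes, and for Kctd18, Castor1 and Swt1 the leading summit fell inside the gene's own window in 8 of 8 libraries that called it. These 3 windows follow, together with that of Hspe1, the mitochondrial co-chaperonin gene whose shared promoter with Hspd1 held the peak ranked 1 in 8 lists and 2 in both 4 h lists. Capitals mark heat shock elements found by a search for GAANNTTCNNGAA on both strands (TTCNNGAANNTTC on the other strand), with no mismatch for Kctd18 and Hspe1 and with up to 1 mismatch for Castor1. Overlapping matches are shown as 1 run.
Kctd18, chr1:57970035-57970334, minus strand: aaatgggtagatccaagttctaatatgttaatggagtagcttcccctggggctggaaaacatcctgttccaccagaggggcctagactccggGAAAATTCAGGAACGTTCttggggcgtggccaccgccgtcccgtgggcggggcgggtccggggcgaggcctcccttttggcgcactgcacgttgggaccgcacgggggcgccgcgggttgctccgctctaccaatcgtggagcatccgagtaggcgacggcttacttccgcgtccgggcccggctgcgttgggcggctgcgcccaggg
Castor1, chr11:4217975-4218274, plus strand: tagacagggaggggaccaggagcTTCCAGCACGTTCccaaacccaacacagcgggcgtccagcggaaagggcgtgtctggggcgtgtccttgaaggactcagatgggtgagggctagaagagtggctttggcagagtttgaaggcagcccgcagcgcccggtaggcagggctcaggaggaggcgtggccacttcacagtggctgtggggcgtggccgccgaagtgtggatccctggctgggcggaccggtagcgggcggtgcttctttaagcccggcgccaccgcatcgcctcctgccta
Swt1, chr1:151428386-151428685, minus strand: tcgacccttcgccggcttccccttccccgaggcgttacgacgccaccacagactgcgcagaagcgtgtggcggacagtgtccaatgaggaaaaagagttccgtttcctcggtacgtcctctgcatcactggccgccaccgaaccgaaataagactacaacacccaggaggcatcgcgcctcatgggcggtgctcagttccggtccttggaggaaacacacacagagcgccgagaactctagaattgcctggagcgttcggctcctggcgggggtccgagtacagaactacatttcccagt
Hspe1, chr1:55087898-55088197, plus strand: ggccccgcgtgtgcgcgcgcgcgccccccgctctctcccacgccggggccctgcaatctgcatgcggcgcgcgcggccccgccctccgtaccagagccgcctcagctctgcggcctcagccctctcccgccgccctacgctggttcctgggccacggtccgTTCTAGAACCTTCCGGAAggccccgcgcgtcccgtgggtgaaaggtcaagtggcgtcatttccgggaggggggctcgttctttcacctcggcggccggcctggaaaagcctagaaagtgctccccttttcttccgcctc

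Kctd18 carried a run of 18 bases at chr1:57970225-57970242 in which 4 alternating units follow each other without a mismatch, as does the 18-base run of Hspe1. The summit of Kctd18 lay inside the run in 3 of 8 libraries and at most 14 bp outside it in the others. The Castor1 match, 13 bases at chr11:4217998-4218010, held the summit in 3 of 8 libraries and lay at most 23 bp from it in the others. In the Hspe1 window the summit fell inside the run in 1 of 10 libraries and up to 66 bp outside it. The median distance of the summit from the centre of the match was 15 bp for Kctd18 and 36.5 bp for Hspe1.

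Swt1 had no match in its window, even with 1 mismatch, although the summit lay in that window in 8 of 8 libraries. Among all 32851 promoter windows, 0.603% held the 3-unit element without a mismatch and 7.22% with up to 1 mismatch. Among 93 windows that hold a summit of both RT lists, a set also chosen after seeing the data, the shares were 18.3% and 64.5%. Among the 7 genes with a window, 1 (Kctd18) held the element without a mismatch and 2 (Kctd18 and Castor1) with up to 1. The shorter 2-unit form, GAANNTTC, which the longer element contains, was in 7.86% of all windows, in 50.5% of those with an RT summit and in 1 of the 7 genes. For Mrfap1, Dynll1, Trafd1 and Xpnpep3 the median summit lay outside every window of the table. A lack of matches in their windows thus says nothing about the bases at the median summit. The Xpnpep3 summits of RT replicate 1 and 4 h replicate 2 did fall in its window, which held no match. In TXNIP KO and the second WT pair, the leading peaks of Mrfap1, Dynll1 and Xpnpep3 spanned their own windows. Those parts of the peaks held no match, even with 1 mismatch.

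**Figure D1:**
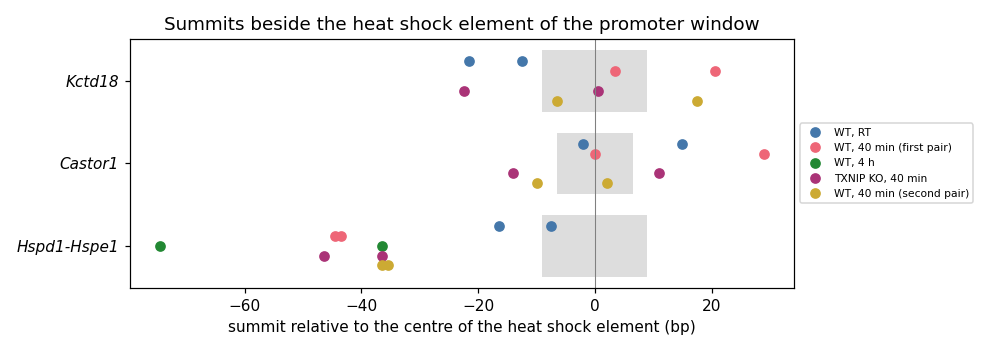
Each point is the leading summit of 1 library, in bp from the centre of the heat shock element of the promoter window, coloured by group; grey bars span the element. Kctd18 and Castor1 summits lie within 14 and 23 bp of the element's edges, and those of Hspd1-Hspe1 up to 66 bp from them.

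Uspl1 encodes a SUMO isopeptidase of Cajal bodies and lies at chromosome 5, 149184560 to 149215434. It had the strongest peak of the 10 genes in most lists. Its folds were 155 and 155 at RT, 226 and 208 in the first WT pair at 40 min and 25.7 and 62.1 at 4 h. They were 626 and 619 in TXNIP KO, against 778 and 802 in the second WT pair. The peak ranked 2 or 3 in the 8 lists other than 4 h, and 8 and 5 at 4 h. The summit stayed within 10 bp over 10 lists, 179 to 189 bp outside the gene, and no other protein-coding gene has an end within 5000 bp of it. The lncRNA Mm2pr, named after the values were seen, ends 2339 bp away.

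Xpnpep3 encodes a mitochondrial aminopeptidase and lies at chromosome 15, 81400105 to 81457482. Its leading peak lies between the gene and a chaperone partner. The median summit lay 253 bp from Xpnpep3 and 158 bp from St13, which encodes an HSP70 co-chaperone, so position alone assigns the peak to neither gene. Folds were 126 and 118 at RT, 156 and 154 in the first WT pair at 40 min and 44.6 and 78.9 at 4 h. TXNIP KO gave 510 and 538, against 632 and 623 in the second WT pair. The peak ranked 5 and 6 at RT, 10 and 8 in the first WT pair and 3 and 3 at 4 h. Dnajb7, a J-domain gene that is not in the chaperone list, lies inside the Xpnpep3 span. A weak further peak inside Xpnpep3, 22564 to 22580 bp from its end, was called in TXNIP KO with folds of 6.31 and 6.69 and in the second WT pair with 10.55 and 10.98, and in no other list.

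Kctd18, a little studied gene of the BTB-domain KCTD family, lies at chromosome 1, 57955101 to 57970141. Its folds were 37.2 and 46.5 at RT and 63.8 and 47.9 in the first WT pair at 40 min, and no peak was called at 4 h. TXNIP KO gave 109 and 97.2, against 177 and 184 in the second WT pair. As at Kctd18, the TXNIP KO folds of all 10 genes lay below both values of the second WT pair, as did those of 66.4% of the 749 regions called in every list other than 4 h. The Hspd1-Hspe1 peak did so too, with 1148 and 1109 in TXNIP KO, against 1296 and 1210 in the second WT pair. Against the first WT pair the direction was reversed, since the TXNIP KO folds of all 10 genes lay above both of its values. The fold of the Hspd1-Hspe1 peak also did, against 400 and 328 in the first pair. At these peaks, the side on which TXNIP KO stood thus depended on the WT pair. The share of regions above the first pair was not computed, so nothing particular to the 10 genes is read from this. The summit lay 70 to 113 bp outside the gene, on the upstream side, and no other protein-coding gene ends within 5000 bp.

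Swt1 encodes a protein whose yeast counterpart is an RNA endonuclease of nuclear mRNA quality control. It lies at chromosome 1, 151367698 to 151428497. The summit lay 35 to 65 bp inside the gene and 86 bp (median) from Trmt1l, a tRNA methyltransferase-like gene on the other strand. Folds were 21.2 and 24.2 at RT and 39.6 and 23.1 in the first WT pair, with no peak at 4 h. TXNIP KO gave 113 and 93.6, against 129 and 149 in the second WT pair. The median summit fell in the promoter windows of both genes, so position alone gives the peak to neither.

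Mrfap1 and Chrac1 encode proteins linked to chromatin, a partner of the MORF4 family and a histone-fold subunit of a remodelling complex. In both the summit lay inside the gene. It was 657 to 734 bp from the end of Mrfap1 (chromosome 5, 36794867 to 36796754), which is also its annotated start. It was 517 to 567 bp from the end of Chrac1 (chromosome 15, 73090412 to 73094075). Mrfap1 had folds of 6.67 and 13.5 at RT, 39.0 and 27.0 in the first WT pair, 124 and 89.3 in TXNIP KO and 165 and 145 in the second WT pair. Chrac1 had 9.30 and 12.7 at RT, 26.3 and 22.3 in the first WT pair, 63.8 and 74.1 in TXNIP KO and 82.0 and 91.8 in the second WT pair. Neither was called at 4 h. The RT libraries differed for Mrfap1, with ranks of 513 of 919 and 175 of 1269.

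Castor1, the arginine sensor that restrains mTORC1, lies at chromosome 11, 4218166 to 4222409. Folds were 15.3 and 19.1 at RT and 38.4 and 24.5 in the first WT pair, with no peak at 4 h. TXNIP KO gave 86.9 and 79.6, against 113 and 144 in the second WT pair. The summit lay 133 to 176 bp outside the gene and 2498 bp (median) from Tbc1d10a, a Rab GTPase-activating protein gene. A weak second peak 1788 bp from the gene in RT replicate 2 and 1603 bp from it in first-pair replicate 1 had folds of 3.71 and 6.52. In TXNIP KO and the second WT pair the leading peak, 2673 to 2762 bp wide, covered these positions.

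Trafd1 encodes a zinc-finger protein that dampens innate immune signalling and lies at chromosome 5, 121371725 to 121386570. Its leading peak lay upstream, with the summit 2627 to 2652 bp outside the gene in 10 of 10 lists. Folds were 17.1 and 19.5 at RT, 36.3 and 33.0 in the first WT pair at 40 min and 12.0 and 20.9 at 4 h. TXNIP KO gave 163 and 159, against 195 and 212 in the second WT pair. A much weaker peak 34 to 58 bp from the end of the gene was called in TXNIP KO with folds of 18.6 and 12.7, and in the second WT pair with 18.1 and 18.2. Still weaker peaks lay 67 and 610 bp from that end in first-pair replicate 1, with folds of 4.35 and 5.56. RT replicate 1 had one 299 bp from it (fold 4.05), and RT replicate 2 one 39 bp inside the annotated start (fold 3.91). First-pair replicate 2 and the 4 h lists held none. Deeper inside the gene, weak peaks 7197 and 7341 bp from its other end were called in the TXNIP KO lists (folds 4.15 and 3.75). Replicate 2.1 of the second WT pair held one 7380 bp from that other end (fold 4.12). Trafd1 is the nearest protein-coding gene to the strong peak, which does not show that it is the gene regulated from there. The lncRNA Gm42020, named after the values were seen, ends 2316 bp away.

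Dynll1, the dynein light chain LC8, lies at chromosome 5, 115297110 to 115300990. Folds were 8.36 and 9.43 at RT, 26.6 and 26.2 in the first WT pair, 95.8 and 94.0 in TXNIP KO and 104 and 102 in the second WT pair, with no peak at 4 h. The summit lay 297 to 344 bp upstream of its start and inside the lncRNA Gm13830, whose end is 191 bp away. Coq5, a methyltransferase of coenzyme Q synthesis, ends 4337 bp away.

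Ccdc117, a little studied coiled-coil gene, lies at chromosome 11, 5528887 to 5542217. Its summit lay 58 to 158 bp inside the gene. Folds were 34.3 and 23.2 at RT, 51.0 and 43.1 in the first WT pair and 5.41 and 13.3 at 4 h. TXNIP KO gave 162 and 142, against 193 and 200 in the second WT pair. No other protein-coding gene has an end within 5000 bp.

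**Figure D2:**
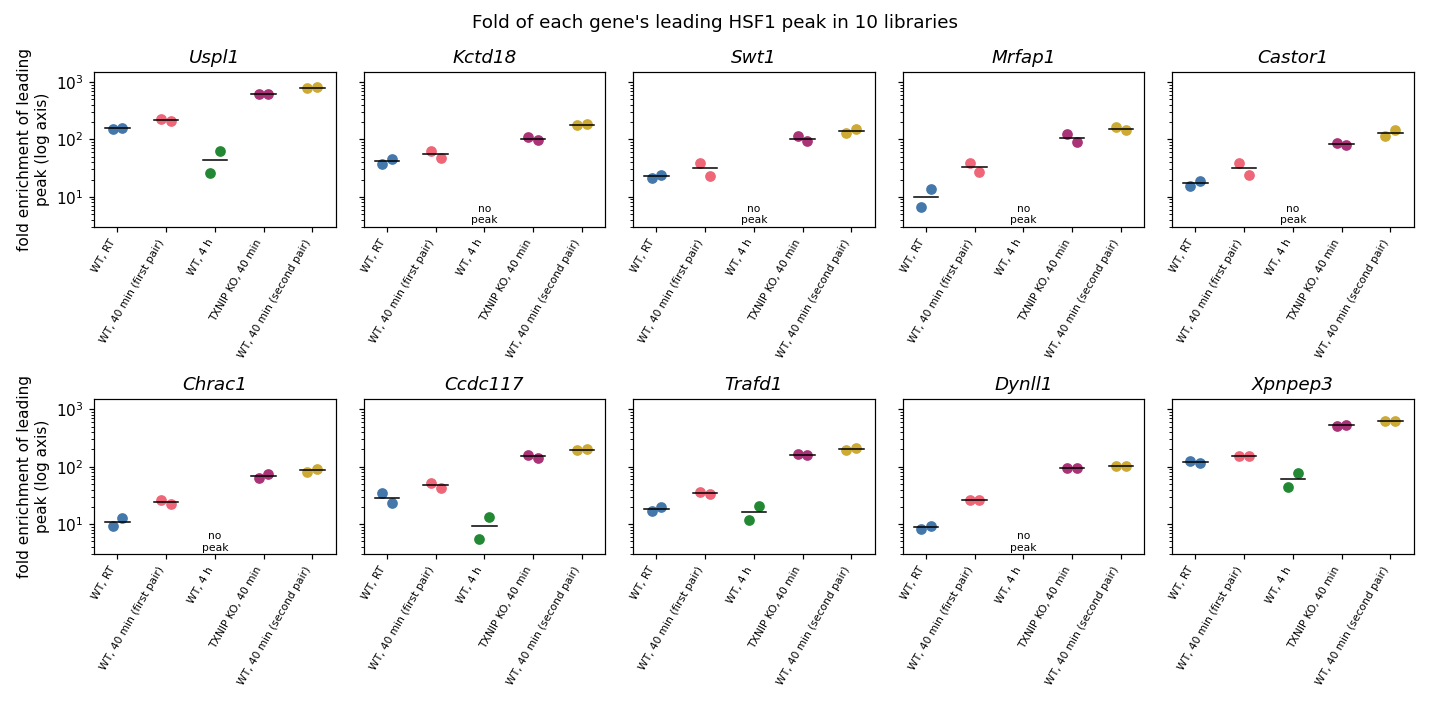
Each panel shows the fold enrichment (log axis) of a gene's leading peak in every library, by group, with a bar at the group mean. Uspl1 and Xpnpep3 stand above the other 8 genes in every group, and the 6 genes marked "no peak" have none in either 4 h list.

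The range of the summit over libraries was 10 bp for Uspl1, 25 bp for Trafd1, 30 bp for Swt1, 43 bp for Kctd18 and Castor1, 47 bp for Dynll1, 50 bp for Chrac1, 77 bp for Mrfap1, 100 bp for Ccdc117 and 120 bp for Xpnpep3. Over the 749 regions with a peak in all 8 lists other than 4 h, the median range was 59 bp (quartiles 43 and 90 bp). Over the 95 regions with a peak in all 10 lists it was 54 bp. Uspl1 and Trafd1 lay below the lower quartile of 37.5 bp of those 95 regions, and Ccdc117 and Xpnpep3 above the upper one of 84.5 bp.

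**Figure D3:**
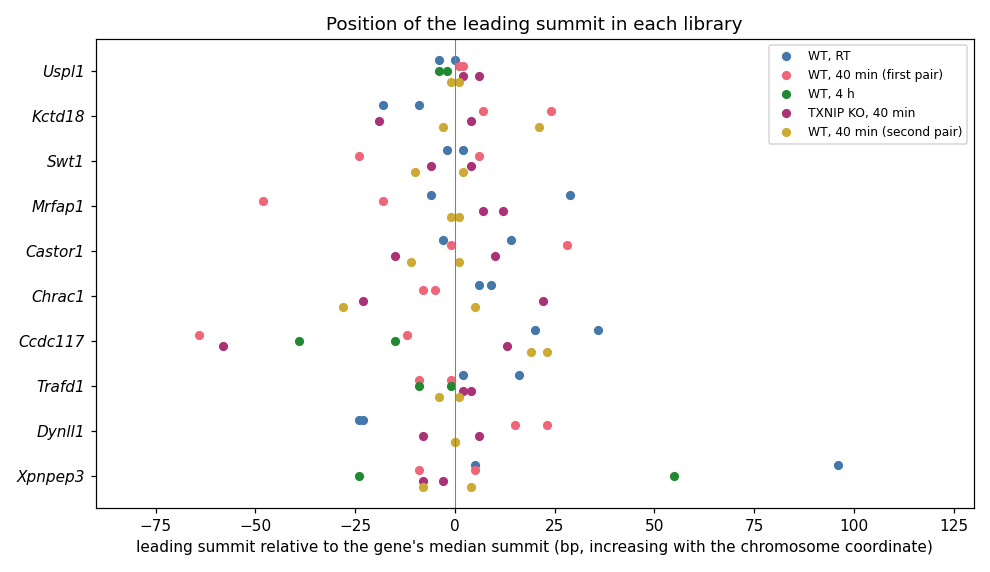
Each point is the leading summit of 1 library, in bp from the gene's median summit, coloured by group. Uspl1 spans 10 bp over 10 libraries, and Xpnpep3 spans 120 bp.

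The comparison of 40 min with RT, made with the first WT pair, asks where HSF1 binding changes early in the cold. None of the 10 genes lost its peak, against 0.465% of all genes that could lose one. None could gain one, while 1.15% of the genes with a peak in neither RT library did. By fold among the 749 shared regions (rank 1 is the highest fold), 4 genes stood nearer the top at 40 min in both libraries without overlap. They were Mrfap1 (ranks 70 and 99 at 40 min, against 479 and 170 at RT), Dynll1 (134 and 104, against 350 and 338 at RT), Chrac1 (136 and 138, against 293 and 191 at RT) and Trafd1 (80 and 74, against 100 and 92 at RT). Of all 749 regions, 25.5% did so, and 26.4% stood further down. Xpnpep3 was further down, with ranks 10 and 7 at 40 min, against 3 and 3 at RT, and the other 5 genes overlapped.

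Set against the Hspd1-Hspe1 peak of the same list, a scale chosen after seeing the data, Dynll1 reached 6.64% and 7.98% of its fold at 40 min, against 4.30% and 4.89% at RT. Mrfap1 reached 9.75% and 8.23% at 40 min, against 3.43% and 6.99% at RT. Uspl1 reached 56.4% and 63.4% at 40 min, against 79.6% and 80.4% at RT. Without overlap between the libraries, Dynll1 and Mrfap1 thus stood closer to the Hspd1-Hspe1 peak at 40 min than at RT, and Uspl1 further from it. Castor1 overlapped, with 9.58% and 7.45% at 40 min, against 7.85% and 9.93% at RT, and so did Chrac1, Ccdc117 and Trafd1. Kctd18, Swt1 and Xpnpep3 stood further from the Hspd1-Hspe1 peak at 40 min, as Uspl1 did. Of the 749 regions, 7.74% stood closer on this scale without overlap and 50.7% further away. The Hspd1-Hspe1 peak itself had folds of 400 and 328 at 40 min, against 194 and 193 at RT. All these 40 min values are of the first WT pair. In the second WT pair, Trafd1 had 15.1% and 17.5%, above its 8.77% and 10.1% at RT. Swt1, with 9.97% and 12.3% in the second pair, overlapped its 10.9% and 12.6% at RT. The other genes stood on the same side of RT in both pairs. The share over all regions was not computed for the second pair.

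The comparison of 4 h with RT asks what remains bound late in the cold. Kctd18, Swt1, Mrfap1, Castor1, Chrac1 and Dynll1 were called in neither 4 h library, 6 of 10 genes, against 63.4% of all 645 genes that could lose a peak. The share lost was thus close to that of all genes. With lists of equal length, the 123 strongest peaks of each library, 3 of the 7 genes with a peak in both RT lists of that length were lost (Castor1, Kctd18 and Swt1), against 31.6% of all 114 genes that could be. Uspl1, Ccdc117, Trafd1 and Xpnpep3 were called in both 4 h libraries. Against the first WT pair at 40 min these 6 genes were again lost, against 75.2% of 1087 genes, and at equal list length 3 of 7 (Castor1, Kctd18 and Mrfap1), against 30.6% of 111. None of the 10 could be gained at 4 h. The share gained was 0.00958% of genes with no peak in either RT library and 0.00495% of those with none in the first WT pair. Of the 40 chaperone genes with a peak in both RT libraries, 10 were called in neither 4 h library.

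Strength at RT was set beside the calls at 4 h in a comparison added after seeing the data. The 2 strongest of the 10 genes at RT, Uspl1 and Xpnpep3 (worse ranks 2 and 6), were called in both 4 h lists, and the 4 weakest, Castor1, Chrac1, Dynll1 and Mrfap1 (118 to 513), in neither. Between them, Kctd18 (44) and Swt1 (77) were called in neither, while Ccdc117 (75) and Trafd1 (94) were called in both. Of 84 regions whose worse RT rank was 94, that of Trafd1, or better, 50 were called in both 4 h lists, 27 in 1 and 7 in neither (8.33%). Kctd18 (ranks 44 and 30 at RT) and Swt1 (77 and 72) were among these 7. The others lay 62 bp from Hspbp1, 9313 bp from Sparc, 20717 bp from Ssh1, 21781 bp from Cecr2 and 86815 bp from Rpl14. Kctd18 had the best worse RT rank of the 7. Of the 23 regions with a worse RT rank of 26 to 50, it was the only one called in neither 4 h list. Trafd1 was weaker at RT than Kctd18 in both libraries and was called in both at 4 h. The 4 h lists are short, and a missing call shows a value under the authors' threshold, not an absence of binding.

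**Figure D4:**
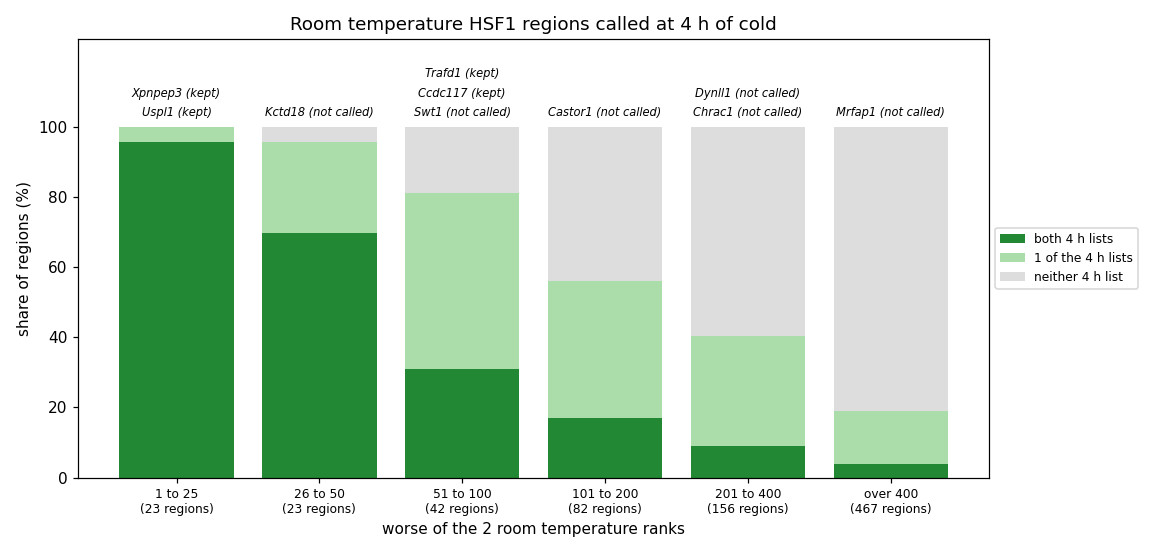
Bars give the share of RT regions (peak in both RT lists) called in both, 1 or neither of the 4 h lists, by the worse of the 2 RT ranks, with the 10 genes named above their range. The share in both is 95.7% in the first range and 3.85% in the last, and Kctd18 is the 1 region of 23 in its range called in neither.

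Trafd1 stood higher in the order at 4 h. Among the 95 regions in all 10 lists it ranked 54 and 54 by fold at RT. At 40 min it ranked 49 and 49 in the first WT pair and 44 and 41 in the second. At 4 h it ranked 16 and 21. This gain of 35.5 places from RT was the fifth largest of the 95 regions, and 29.5% of them stood nearer the top at 4 h than at RT without overlap. As a share of the fold of the Hspd1-Hspe1 peak Trafd1 stood at 8.77% and 10.1% at RT and 22.3% and 17.8% at 4 h. At 40 min it had 9.06% and 10.0% in the first WT pair. The second WT pair had 15.1% and 17.5%, the latter close to the lower 4 h value. Ccdc117 ranked 38 and 48 at RT, 41 and 41 in the first WT pair and 80 and 50 at 4 h. Xpnpep3 ranked 3 and 3 at RT, 10 and 7 in the first WT pair and 2 and 2 at 4 h. Uspl1 ranked 2 and 2 at RT, 2 and 3 in the first WT pair and 5 and 4 at 4 h. Without overlap between the libraries, Trafd1 and Xpnpep3 thus stood nearer the top at 4 h than at RT, and Ccdc117 and Uspl1 further down, as 38.9% of the 95 regions did. Each stood on that side of the first WT pair too, where 34.7% of the regions were nearer the top at 4 h and 33.7% further down.

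**Figure D5:**
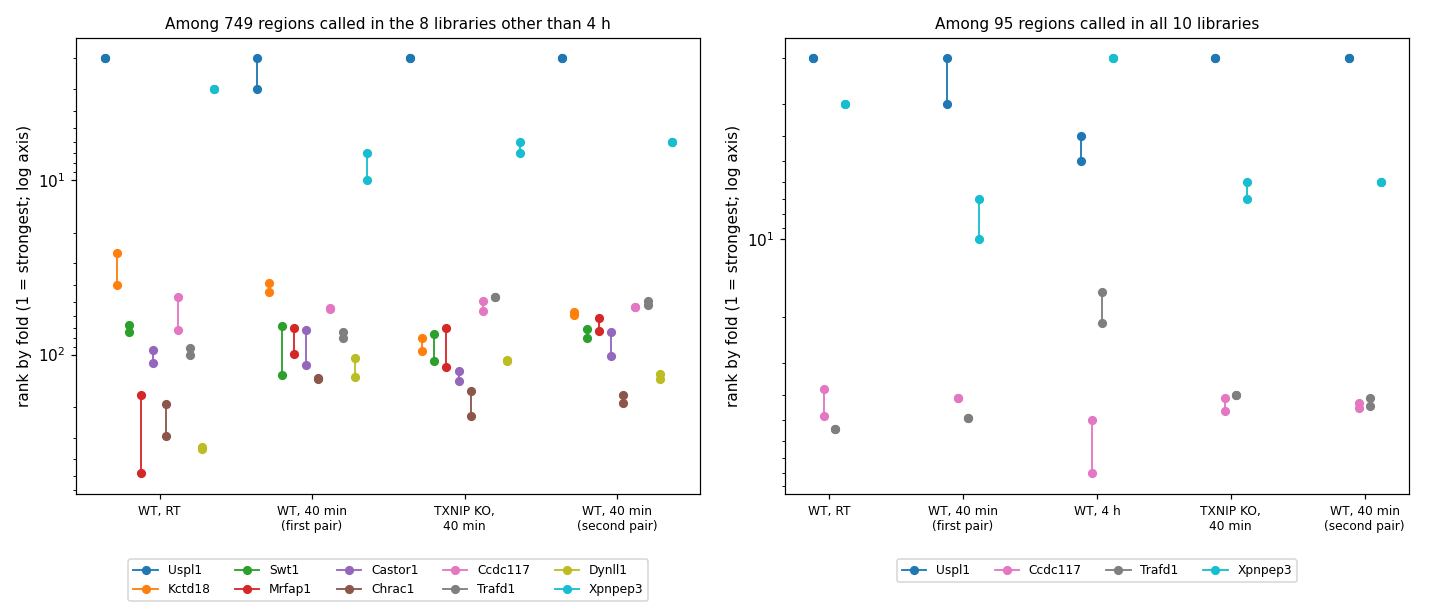
Points give the rank by fold (log axis, 1 at the top) of each gene's region in every library; lines join the 2 libraries of a group. On the left, Dynll1 and Mrfap1 stand lower at RT than at 40 min; on the right, Trafd1 reaches ranks 16 and 21 at 4 h.

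The comparison of TXNIP KO with WT at 40 min asks whether HSF1 binding in the cold depends on TXNIP, an arrestin-fold protein that binds thioredoxin. All 10 genes kept a peak in both TXNIP KO libraries, while 10.6% of all genes with a peak in both libraries of the second WT pair had none in TXNIP KO. None of the 10 could be gained, and 0.477% of all genes with no peak in the second pair were. By fold among the 749 regions, Kctd18 stood further down in TXNIP KO, with ranks 80 and 95, against 57 and 59 in the second WT pair. Castor1 also did, with 124 and 142 in TXNIP KO, against 102 and 74 in the second WT pair. Of all regions, 24.3% stood further down without overlap. The first WT pair gave ranks 39 and 44 for Kctd18 and 72 and 115 for Castor1, also nearer the top than in TXNIP KO.

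Trafd1 stood nearer the top in TXNIP KO, with ranks 47 and 47, against 52 and 49 in the second WT pair, and so did Dynll1, with 109 and 107 in TXNIP KO, against 129 and 139 in the second WT pair. Of all regions 26.8% did so. Ordered by −log10 p, Trafd1 overlapped, with ranks of 53 to 55 in TXNIP KO, against 50 to 53 in the second WT pair. By that order Ccdc117 stood nearer the top without overlap, with 49 to 52 in TXNIP KO, against 54 to 55 in the second WT pair. By fold, the other 6 genes overlapped between the groups. For Dynll1 the first WT pair, with ranks 134 and 104, overlapped TXNIP KO. As a share of the fold of the Hspd1-Hspe1 peak, Kctd18 stood at 9.51% and 8.76% in TXNIP KO, 13.7% and 15.2% in the second WT pair and 15.9% and 14.6% in the first. On this scale Uspl1, Swt1, Mrfap1, Castor1, Ccdc117, Trafd1 and Xpnpep3 also stood lower in TXNIP KO than in the second WT pair without overlap. Trafd1, nearer the top by rank, had 14.2% and 14.3% in TXNIP KO, against 15.1% and 17.5% in the second WT pair. Chrac1 and Dynll1 overlapped the second pair. Against the first WT pair, Uspl1 again stood lower in TXNIP KO. Trafd1 (9.06% and 10.0% in the first pair) and Dynll1 (6.64% and 7.98%) stood higher in TXNIP KO. Swt1, Mrfap1, Castor1, Chrac1, Ccdc117 and Xpnpep3 overlapped the first pair. The share over all regions on this scale was not computed for either pair, so nothing particular to the 10 genes is read from it.

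The WT pairs at 40 min carry the same genotype and treatment labels. None of the 10 genes lost a peak in the second pair, against 0.0920% of all genes that could. None could be gained, while 20.5% of genes with no peak in the first pair were. By fold among the 749 regions, Trafd1 ranked 52 and 49 in the second pair, against 80 and 74 in the first. Kctd18 ranked 57 and 59 in the second pair, against 39 and 44 in the first, and Chrac1 ranked 190 and 171 in the second pair, against 136 and 138 in the first. Nearer the top in the second pair without overlap were 3 of 10 genes (20.2% of all regions), and 2 were further down (21.5%). The difference between the comparison of TXNIP KO with WT and that of the WT pairs was not tested, and they share the second WT pair.

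Other strong genes were taken only from regions with a summit within 1000 bp of a gene end. Outside the chaperone list and the 10 genes described here, the 10 such genes with the best worse RT rank were Aptx, Ubqln1, Pradc1, Zfand2a, Ube2d3, Ubb, Slc35e2, P4ha1, Vipas39 and Acot7, at worse ranks of 4 to 39. Uspl1 and Xpnpep3 stood in or above this range, with worse ranks of 2 and 6, and the other 8 genes stood below it, with 44 to 513. Aptx (a DNA end repair enzyme), Pradc1 and Vipas39 share their region with the chaperone genes Dnaja1, Cct7 and Ahsa1, as Xpnpep3 does with St13. Ubqln1, Zfand2a, Ube2d3 and Ubb serve the ubiquitin and proteasome system. Ubb, a polyubiquitin gene, had folds of 47.9 and 46.5 at RT, close to the 37.2 and 46.5 of Kctd18, and was called in both 4 h libraries, which Kctd18 was not. Of the 46 regions with a worse RT rank up to 50, 22 lay within 1000 bp of an end of a chaperone gene, and 3 belonged to the 10 genes described here. The Xpnpep3 region, beside St13, is counted in both.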

How the data were processed

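HSF1 ChIP-seq of mouse brown adipose tissue gave 10 libraries; 5 inputs have no file analysed here, and 1 input, whose title and treatment label disagree, was placed in no group. Per the labels' protocols, proteins were cross-linked in DSG (2 mM, 25 min) and then in formaldehyde (0.8%, 12 min). Tools named in the submitters' processing notes are MACS2 2.2.7.1, deepTools 3.4.3, BWA 0.7.17, Trim Galore 0.6.0 and SAMtools, on GRCm38.p6 (mm10). The authors deposited 1 narrow peak list per library, not pooled, with a fold enrichment (a linear ratio), the −log10 of the p-value and q-value, and the summit of each peak. Read filters, the treatment of duplicates and the input used for each list: not given in the sources used. Because the lists hold no counts, no count test could be used.

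Chromosomes 1 to 19, X and Y were kept, with 1-based positions, in Python 3.11.15 with pandas 2.3.3. Genes came from the RefSeq table of GRCm38.p6, promoter windows from RefSeq. Peaks of all lists overlapping by 1 bp were merged into regions. A gene was lost when both libraries of the reference and neither of the other group had a peak. A motif and interval search was tested on simulated data. The named genes are the 10 members, protein-coding genes with an end within 5000 bp of their summits, 6 chaperone genes, and up to 10 other genes of the leading RT regions. Members, the chaperone list and these rules were chosen with earlier results of these data known. Alternatives covered the window, overlap, threshold, list length, order, motif and each replicate.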

Additional observations from a re-analysis of the deposited data

How the results depend on the processing

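Counts of the 10 genes bound, lost or gained stayed within 1.5 times of the reported ones under windows of 1000 and 0 bp, summits inside the window, −log10 q of at least 3 and 10, and the first WT pair as control of TXNIP KO. With the 1000 bp window, which leaves out the distant peak of Trafd1, 3 genes were called at 4 h and 7 were lost against RT. Lists of equal length were the exception. With the 123 strongest peaks of each library, 3 genes rather than 6 were lost at 4 h against RT and 3 against 40 min, since 7 genes remained in both lists at RT and in the first WT pair. With 1 mismatch allowed, 2 genes rather than 1 had a heat shock element. Leaving out each library in turn gave 6 to 6 genes lost at 4 h against RT and against 40 min, and 4 to 4 called at 4 h. Of 44 mean ranks within a list, 15 moved by more than 1 SD of their 2 libraries when ordered by fold. With the peak nearest a gene end, 4 moved, all of Trafd1, whose mean rank was then 1038.5 rather than 94 at RT, 1020.5 rather than 72 in the first WT pair, 1661.5 rather than 54 in TXNIP KO and 1662 rather than 51.5 in the second. No paired analysis was possible because the labels give no pairing of libraries. No result comes from a test across features or samples. Depth is unknown, so calls missing at 4 h cannot be told apart from low signal.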
